A study of Mus musculus with 2 samples.

Results

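The Sox and POU transcription factor genes were followed in the germinal zone of the embryonic mouse cortex, with and without a conditional knockout of Rcor2, a corepressor subunit of the CoREST family. All genes whose symbol is Sox or Pou followed by the family number were taken, whatever their level, which gave 34 genes of the 21896 in the files: 19 Sox genes and 15 Pou genes. RNA came from the ventricular and subventricular zones (VZ-SVZ) of C57/BL6 embryos at E13.5, and 1 library was made from each genotype. The control embryos were Rcor2fl/fl, with both alleles floxed. The knockout embryos, Rcor2cko, also carry floxed alleles and have them deleted by NesCre, and both genotypes came from a cross of Rcor2fl/+NesCre mice. In that line the Nestin promoter drives Cre in neural progenitors, so the deletion is not restricted to the cortex. How many embryos went into a library is not given in the sources used here, and whether the Rcor2fl/fl embryos carried Cre is not given either. With 1 library a genotype there was no replicate, so every difference given here is a difference between 2 libraries, with no test.

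Levels are FPKM, a fragment number scaled to transcript length and library size, with the 95% interval deposited beside each value. Where several transcript rows were summed, their intervals were combined in quadrature. Changes are the log2 ratio of FPKM + 0.1 in Rcor2cko over Rcor2fl/fl, so a positive value is a higher level in the knockout library, and the pseudocount of 0.1 understates the change of weakly expressed genes. A gene entered the comparison if either library gave it 1 FPKM or more, which held for 11777 genes, and 1.5-fold was the size past which a difference was counted. The FPKM steps of genes with 1 transcript row gave back whole fragment numbers, on a scale of 18841684 fragments for Rcor2fl/fl and 25479853 for Rcor2cko. From these, a 95% interval of the log2 ratio was computed by the exact Clopper-Pearson method, which covers counting error only and not the variation between embryos.

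The targeted gene itself had 90.6 FPKM in Rcor2fl/fl and 55.7 FPKM in Rcor2cko (log2 change -0.70, exact interval -0.78 to -0.63), over the whole transcript. This level does not separate the floxed exons from the others. The paper reported no RNA signal from the floxed exons in Rcor2cko cortex, and loss of Rcor2 protein in Rcor2cko brains by western blot. Markers of the labelled tissue were present in both libraries. The 6 cortical progenitor markers summed to 218 FPKM in Rcor2fl/fl and 178 FPKM in Rcor2cko. All 6 were lower in Rcor2cko, with a median log2 change of -0.29. Of these, Emx2 was more than 1.5-fold lower (21.5 against 13.9 FPKM), as 1.76% of all compared genes were. The 5 markers of new cortical neurons summed to 681 and 672 FPKM, with 2 higher and 3 lower in Rcor2cko. Markers of other cells differed between the libraries too. The 6 ventral telencephalon markers summed to 10.2 against 37.8 FPKM, with Gsx2 and Isl1 at 0 in Rcor2fl/fl. Dlx1, Dlx2 and Dlx5 reached 1 FPKM in both libraries and were more than 1.5-fold higher in Rcor2cko, as 3.79% of compared genes were. Dlx6, Gsx2 and Isl1 reached 1 FPKM in Rcor2cko only, so they could enter the comparison only as higher there. The 4 genes listed as oligodendrocyte precursor markers summed to 1.40 against 4.35 FPKM, and the paper counts 1 of them, Olig2, among ventral marker genes. The 6 choroid plexus markers summed to 0.897 against 61.4 FPKM, most of it from Ttr, which was at 0 in Rcor2fl/fl and 57.8 FPKM in Rcor2cko. The 5 Cajal-Retzius markers summed to 47.2 against 20.1 FPKM and the 4 microglia markers to 8.10 against 12.2 FPKM. The 5 meninges markers, all under 1 FPKM, went both ways, with Dcn at 0.533 against 0.0985 FPKM and Col1a2 at 0.257 against 0.580 FPKM. Xist was at 177 FPKM in Rcor2fl/fl and 0.109 FPKM in Rcor2cko, and the Y-linked Eif2s3y at 0 and 19.8 FPKM, so the sex of the embryos and the genotype cannot be told apart. In a bulk library, fewer cells of a type and less RNA per cell cannot be told apart either.

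Sox proteins bind DNA through the HMG box, a domain that sits in the minor groove and bends the helix, and the subfamilies A to H are defined by its sequence. SoxB1 factors hold neural progenitors in the undifferentiated state, SoxC factors act as cells leave the cycle and become neurons, SoxD factors lack a known activation or repression domain and shape when and which neurons and glia form, and SoxE factors act in glia, neural crest and cartilage. SoxF factors mark the endothelium of blood vessels. POU proteins bind through a bipartite domain, a POU-specific part and a POU homeodomain, and the classes differ in where they act: class III (the Brn1, Brn2 and Brn4 genes and Oct6) in the developing nervous system, class II (Oct1 and Oct2) broadly and in lymphocytes, class IV (the Brn3 genes) in sensory neurons, and class V in pluripotent cells. SoxB1 and class III POU proteins are known to bind side by side on enhancers of neural progenitor genes such as that of nestin.

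The DNA-binding domain is what ties each family together, so a stretch of its coding sequence is shown for the members that the results turn on. The 60 bases are the most conserved stretch of the coding sequence, taken from GENCODE transcripts on build NCBIM37, which is mm9, and written 5′ to 3′ on the coding strand. For the Sox genes the stretch lies in the HMG box and is anchored on Sox2, where it spans coding bases 124 to 183. Capitals mark the bases that differ from Sox2:
Sox2: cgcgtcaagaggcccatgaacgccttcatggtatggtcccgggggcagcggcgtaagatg
Sox3: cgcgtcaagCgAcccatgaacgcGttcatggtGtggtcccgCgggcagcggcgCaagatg
Sox21: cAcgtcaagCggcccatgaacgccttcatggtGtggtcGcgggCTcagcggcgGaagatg
Sox4: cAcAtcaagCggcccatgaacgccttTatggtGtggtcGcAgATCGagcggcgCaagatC
Sox11: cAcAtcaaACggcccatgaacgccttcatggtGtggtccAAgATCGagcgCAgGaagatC
Sox12: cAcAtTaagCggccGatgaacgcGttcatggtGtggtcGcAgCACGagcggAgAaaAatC
Sox5: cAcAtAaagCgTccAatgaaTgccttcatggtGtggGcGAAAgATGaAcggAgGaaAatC
Sox6: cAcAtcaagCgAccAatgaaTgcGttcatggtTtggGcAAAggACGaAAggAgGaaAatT
Sox13: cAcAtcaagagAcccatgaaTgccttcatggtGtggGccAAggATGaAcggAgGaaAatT
Sox8: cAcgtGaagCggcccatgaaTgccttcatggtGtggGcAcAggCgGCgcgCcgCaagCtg
Sox9: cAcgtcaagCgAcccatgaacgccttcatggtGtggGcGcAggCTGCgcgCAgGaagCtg
Sox18: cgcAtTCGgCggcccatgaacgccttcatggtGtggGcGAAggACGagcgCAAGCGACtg

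Sox3 differed from Sox2 at 6 of the 60 bases and at none of the 20 encoded residues. Sox21, of SoxB2, kept 18 of the 20 residues, and the SoxC and SoxE genes shown kept 14, the SoxD genes 13 and Sox18 of SoxF 11. The order of likeness therefore follows the subfamilies, with SoxB1 and SoxB2 nearest to Sox2 and SoxF farthest among those shown.

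For the Pou genes the stretch lies in the POU-specific domain and is anchored on Pou3f3, where it spans coding bases 952 to 1011. Capitals mark the bases that differ from Pou3f3:
Pou3f3: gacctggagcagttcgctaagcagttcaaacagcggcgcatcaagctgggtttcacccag
Pou3f1: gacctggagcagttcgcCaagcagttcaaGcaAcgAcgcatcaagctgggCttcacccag
Pou3f2: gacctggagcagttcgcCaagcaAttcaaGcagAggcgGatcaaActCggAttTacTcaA
Pou3f4: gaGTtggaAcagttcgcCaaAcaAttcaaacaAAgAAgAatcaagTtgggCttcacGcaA
Pou2f1: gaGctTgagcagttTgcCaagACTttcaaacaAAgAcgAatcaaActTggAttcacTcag
Pou6f1: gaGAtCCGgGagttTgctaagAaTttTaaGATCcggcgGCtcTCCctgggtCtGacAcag

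Pou3f1 and Pou3f2 kept all 20 residues of Pou3f3 and Pou3f4 kept 19, while Pou2f1 kept 18 and Pou6f1 11. Such likeness bears on how fragments are assigned, because a short read from a shared run maps to more than 1 gene. Of the 244 pairs of members within a family, 36 shared an exact coding run of at least 25 bases and 1 a run of at least 50 bases, Pou4f1 and Pou4f2 with 71. Sox4 and Sox11 shared a run of 48 bases, Sox9 and Sox10 of 44, and Pou3f1 and Pou3f2 of 38. The read length is not given in the sources used here, and the effect of these runs on the levels was not tested.

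Of the 34 genes, 20 reached at least 1 FPKM in at least 1 library, 13 of them Sox and 7 Pou, and 14 stayed under it in both. The levels spanned a wide range within each family. Sox4 and Sox11 were the highest of all members, and with Sox12 the 3 SoxC genes made up 70.9% of the summed Sox FPKM in Rcor2fl/fl and 71.1% in Rcor2cko. SoxD followed with 13.3% and 11.5%, then SoxB1 with 10.5% and 11.8%. Among the Pou genes, class III held 73.3% of the summed FPKM in Rcor2fl/fl and 74.7% in Rcor2cko, and Pou6f1 of class VI held 20.9% and 19.2%. The families as a whole came to 631 and 608 FPKM for Sox and to 181 and 175 FPKM for Pou, a log2 ratio of the sums of -0.05 in each.

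**Figure D1:**
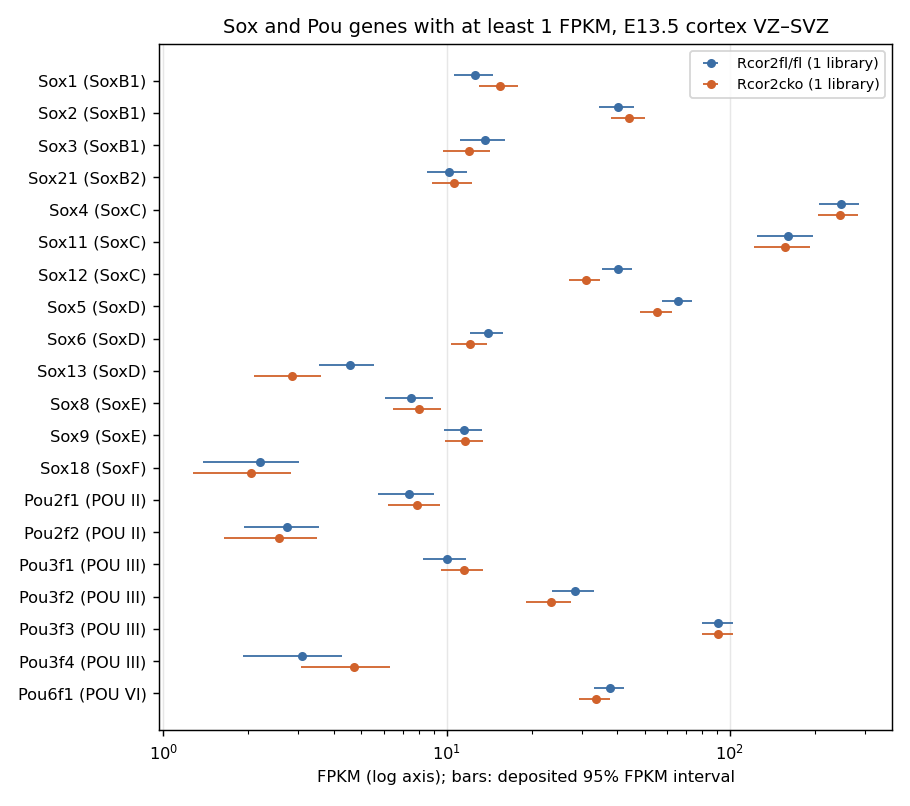
FPKM on a log axis for the Sox and Pou genes in the Rcor2fl/fl and Rcor2cko libraries, with the deposited 95% intervals as bars and genes grouped by subfamily or class. The points of the 2 libraries lie close together for most genes, with Sox4 and Sox11 at the top and Pou3f3 as the highest Pou gene.

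**Figure D2:**
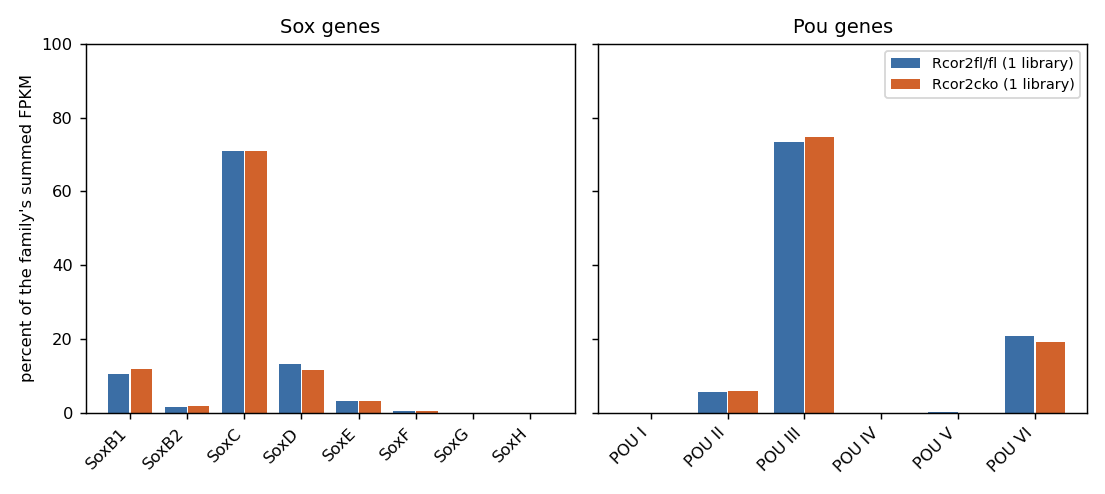
Share of the summed FPKM of each family, in percent, by Sox subfamily and by POU class in the 2 libraries. SoxC holds 70.9% in Rcor2fl/fl and 71.1% in Rcor2cko, and POU class III holds 73.3% and 74.7%.

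Genes without introns carried most of the expression. In the annotation 8 members have 1 exon (Sox2, Sox3, Sox21, Sox4, Sox11, Pou3f2, Pou3f3 and Pou3f4), all 8 were among the 20 genes at 1 FPKM or more, and together they carried 73.1% of the Sox and Pou FPKM in Rcor2fl/fl and 75.0% in Rcor2cko. Reads from such a gene cannot be told from genomic DNA by a splice junction. Sox1 and Pou5f2 are not in that annotation and could not be counted. Pou3f1 has 2 exons there and was not counted, although its longest transcript, of 3010 bases, fills nearly the whole annotated span. For Pou3f2 and Pou3f4 the transcript in the files is no longer than the coding sequence (1338 and 1086 bases), so fragments from their untranslated ends were not counted.

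Few members differed by much between the libraries. Of the 20 genes compared, 9 were higher in Rcor2cko and 11 lower, by any amount. Pou3f4 was the 1 member more than 1.5-fold higher, where 3.79% of all compared genes were, and Sox13 the 1 member more than 1.5-fold lower, where 1.76% of all were. The other 18 stayed within 1.5-fold. The median change was -0.04 over the 13 Sox genes (0.006 under upper-quartile scaling) and 0.00 over the 7 Pou genes, beside -0.03 over all compared genes, and the median size of the change, whatever its sign, was 0.15 over the members and 0.12 over all.

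Counting error left room for small differences. Fragment numbers could be had for 16 of the 20 genes, and the exact interval lay above 0 in 4 (Sox1, Sox2, Pou3f1 and Pou3f4), beside 14% of all genes with fragment numbers, and below 0 in 6 (Sox3, Sox11, Sox12, Sox13, Pou3f2 and Pou6f1), beside 23.2% of all. It held 0 in the other 6. Such an interval narrows as fragments increase, and fragment numbers were not matched between the members and all genes. The deposited 95% FPKM intervals, which are wider, failed to overlap in 1 member, Sox12, which was lower in Rcor2cko as 1.21% of all compared genes were by that measure. No member was higher by it, where 2.26% of all were.

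**Figure D3:**
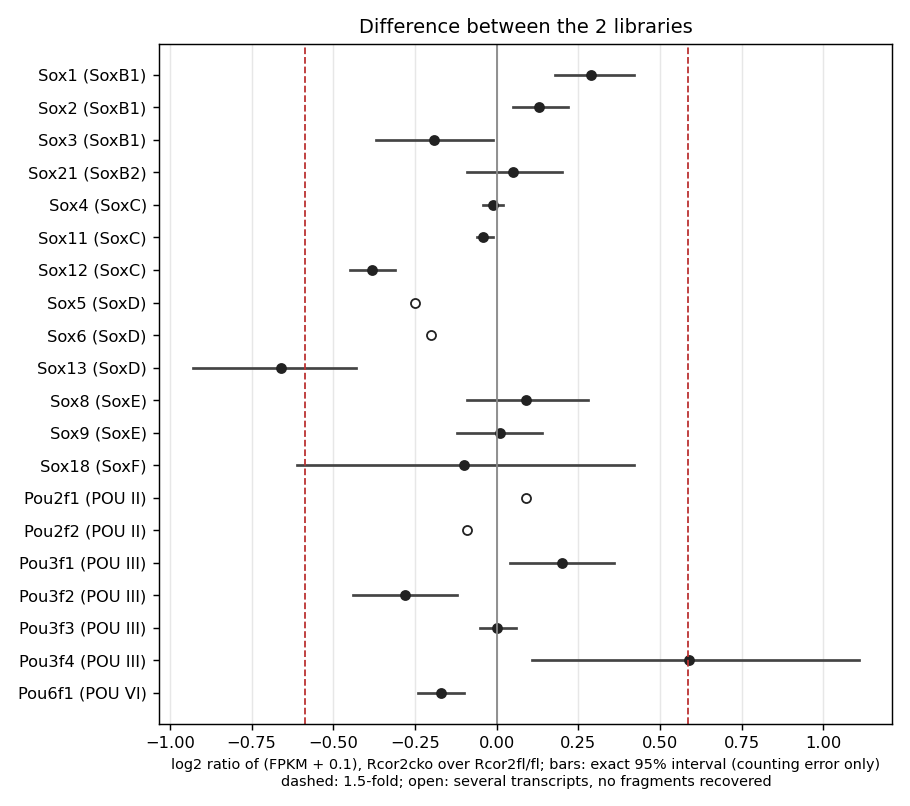
Log2 change of FPKM + 0.1, Rcor2cko over Rcor2fl/fl, for the 20 members at 1 FPKM or more in either library, with the exact 95% interval from fragment numbers as bars for the 16 genes with 1 transcript row. Sox13 lies at -0.66 and Pou3f4 at 0.59, past the 1.5-fold lines, and the other 18 lie between the lines.

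**Figure D4:**
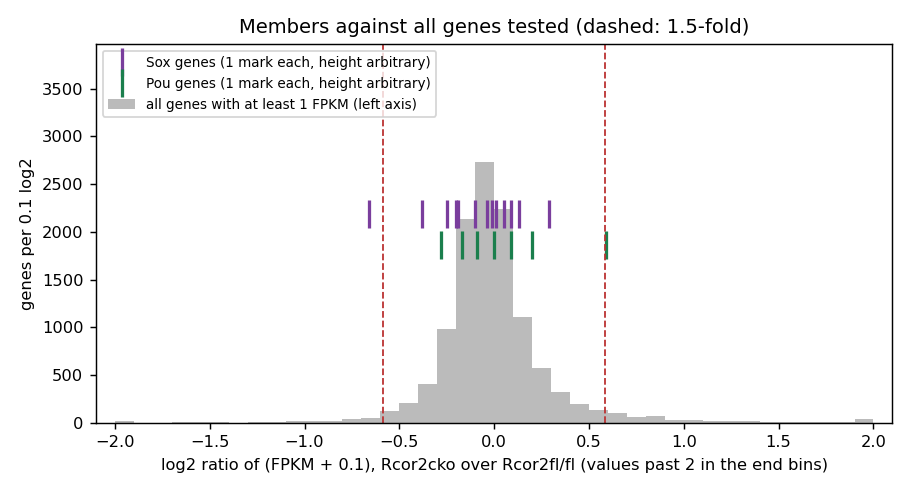
Histogram of the log2 change of all compared genes, with the 20 members marked. The other 18 members lie between the dashed 1.5-fold lines, with Sox13 at percentile 1.3 of all compared genes and Pou3f4 at percentile 96.2.

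The SoxB1 genes, which mark neural progenitors, did not move in 1 direction. Sox2 (chr3:34548927-34551383, plus strand, 1 exon) was at 40.2 FPKM in Rcor2fl/fl and 44.2 FPKM in Rcor2cko, a log2 change of 0.13 (exact interval 0.05 to 0.22). Sox1, which is expressed from the neural plate on, was at 12.6 and 15.5 FPKM (0.29, interval 0.18 to 0.42). Sox3 (chrX:58144545-58146605, minus strand, 1 exon) was at 13.6 and 12.0 FPKM (-0.19, interval -0.37 to -0.01). Sox1 and Sox2 were thus higher in the Rcor2cko library and Sox3 lower, each by less than 1.5-fold, and Sox3 is X-linked, so that for it the sex of the embryos enters as well. The paper reported decreased Sox2 protein by immunostaining in Rcor2cko cortex at E13.5, and a similar result by quantitative PCR of developing neocortex. The Sox2 RNA level here, from 1 library a genotype, did not show that decrease, and the reason was not tested. Under upper-quartile scaling the Sox3 change was -0.14. The Sox3 interval, which ends at -0.01, was not recomputed under that scaling. The summed SoxB1 level was 66.5 FPKM in Rcor2fl/fl and 71.6 FPKM in Rcor2cko.

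Sox2 lies within Sox2ot, a long noncoding transcript that runs over it on the same strand, and the files give both genes 1 merged locus. Sox2ot was at 7.0 FPKM in Rcor2fl/fl and 9.33 FPKM in Rcor2cko, a log2 change of 0.41 (interval 0.23 to 0.60). Both genes were higher in Rcor2cko, and fragments from the part they share cannot be assigned with certainty. Of SoxB2, whose proteins repress what SoxB1 proteins activate, Sox21 was at 10.2 and 10.6 FPKM (0.05, interval -0.09 to 0.20). Sox14, the other SoxB2 gene, had 1 fragment in Rcor2fl/fl and 0 in Rcor2cko.

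The SoxC genes Sox4 and Sox11, which act in newly formed neurons, were nearly level. Sox4 (chr13:29040788-29045582, minus strand, 1 exon) was at 246 FPKM in Rcor2fl/fl and 245 FPKM in Rcor2cko, from 12798 and 17149 fragments, and ranked 148 and 145 among all genes. Its log2 change was -0.01 (interval -0.04 to 0.02), which became 0.03 when the libraries were scaled to a common upper quartile. Sox11 (chr12:28025562-28027574, minus strand, 1 exon) was at 161 and 157 FPKM, from 25010 and 32926 fragments. Its log2 change was -0.04 (interval -0.06 to -0.01), and 0.01 under upper-quartile scaling, so the sign of either gene rests on the scaling. Sox11 drew more fragments than Sox4 but has the lower FPKM, because its transcript in the files is 8451 bases long and that of Sox4 2953. The coordinates given are those of GENCODE, where the longest Sox11 transcript has 2013 bases and that of Sox4 4795. They are therefore not those of the transcripts behind the FPKM.

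Sox12, the least studied SoxC gene, differed more than the other 2. It lies at chr2:152219347-152223782 on the minus strand, with 2 exons, and was at 40.3 FPKM in Rcor2fl/fl (deposited interval 35.4 to 45.2) and 31.0 FPKM in Rcor2cko (27.1 to 34.8). The log2 change was -0.38 (exact interval -0.45 to -0.31), at percentile 5.08 of all compared genes. Sox12 and Sox2 had the same level in Rcor2fl/fl within their intervals, and in Rcor2cko the deposited interval of Sox2, 38.04 to 50.3 FPKM, lay above that of Sox12.

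All 3 SoxD genes were lower in the Rcor2cko library when transcript rows were summed. Sox5 and Sox6 lost that sign when the highest row was taken, a choice that lowers the Rcor2fl/fl level alone. Their summed level was 84.2 FPKM in Rcor2fl/fl and 70.1 FPKM in Rcor2cko. Sox13 (chr1:135278880-135320954, minus strand, 14 exons), best known from T cells and from the developing neural tube, was at 4.55 FPKM (deposited interval 3.54 to 5.55) in Rcor2fl/fl and 2.84 FPKM (2.09 to 3.59) in Rcor2cko. That is a log2 change of -0.66 from 286 and 241 fragments, with an exact interval of -0.93 to -0.43. The exact interval excludes 0 and the deposited intervals overlap slightly. The Cajal-Retzius markers were lower in the Rcor2cko library too, and their part in the Sox13 result was not tested.

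Sox5, which sets the order in which deep-layer cortical neurons are born, was at 65.6 FPKM in Rcor2fl/fl (57.5 to 73.8) and 55.1 FPKM in Rcor2cko (48.0 to 62.3), a log2 change of -0.25. Sox6, its close relative in cortical progenitors and interneurons, was at 14.0 FPKM (12.1 to 15.8) and 12.1 FPKM (10.4 to 13.8), a change of -0.20. The intervals overlap for both. These values rest on how the files list transcripts: the Rcor2fl/fl file gives each transcript its own row and the Rcor2cko file 1 row a gene. In Rcor2fl/fl the Sox5 level was the sum of a 2917-base transcript with 52.0 FPKM, which is 79.3% of it, and a 2770-base transcript with 13.6 FPKM. The 3 Sox6 transcripts held 42.0%, 32.5% and 25.5%. When the highest row stood for the gene in place of the sum, the sign of the change turned for both, to 0.08 for Sox5 and 1.03 for Sox6. That sets 1 transcript in Rcor2fl/fl against the whole gene in Rcor2cko. The change could only move up, so it is no check on the direction.

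SoxE genes stood low and level. Sox9, which keeps neural stem cells and starts gliogenesis, was at 11.6 FPKM in Rcor2fl/fl and 11.7 FPKM in Rcor2cko (0.01, interval -0.12 to 0.14). Sox8 was at 7.51 and 8.01 FPKM (0.09, interval -0.09 to 0.28). The intervals of both include 0. Sox10, which oligodendrocyte precursors and Schwann cells require, had 4 fragments in Rcor2fl/fl and 8 in Rcor2cko (log2 ratio interval -1.33 to 2.75), so no difference was detectable at this depth. Of the 4 oligodendrocyte precursor markers beside it, 3 had higher values in Rcor2cko: Olig1 was at 0.242 and 1.31 FPKM, Olig2 at 0.189 and 1.28 FPKM and Pdgfra at 0.267 and 1.22 FPKM. The other, Cspg4, was at 0.703 and 0.540 FPKM, from 104 and 108 fragments (-0.33, interval -0.78 to 0.02). Olig1, Olig2 and Pdgfra reached 1 FPKM in Rcor2cko only, so they could enter the comparison only as higher there. The paper counts Olig2 among ventral marker genes, so this list does not single out oligodendrocyte precursors.

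The SoxF genes were low, and their intervals include 0. Sox18 was at 2.20 FPKM in Rcor2fl/fl and 2.05 FPKM in Rcor2cko, from 59 and 74 fragments (-0.10, interval -0.61 to 0.42). Sox7 was at 0.760 and 0.704 FPKM and Sox17 at 0.560 and 0.724 FPKM, both under 1 FPKM. The summed level of the 6 endothelial markers was 29.1 FPKM in Rcor2fl/fl and 30.8 FPKM in Rcor2cko, and none of the 6 was past 1.5-fold. Sox15 of SoxG had 1 fragment in Rcor2fl/fl and 0 in Rcor2cko, and Sox30 of SoxH had 5 in each.

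Class III holds the POU genes of the cortical germinal zone, and its 4 genes split. Pou3f3 (Brn1; chr1:42753991-42757052, plus strand, 1 exon), with Pou3f2 a driver of upper-layer neuron production, was at 90.9 FPKM in Rcor2fl/fl and 91.1 FPKM in Rcor2cko, from 4918 and 6649 fragments (0.00, interval -0.05 to 0.06). Pou3f2 (Brn2; chr4:22413791-22415480, minus strand, 1 exon) was at 28.4 and 23.3 FPKM (-0.28, interval -0.44 to -0.12). Pou3f1 (Oct6; chr4:124334889-124337899, plus strand, 2 exons) was at 10.0045 and 11.5 FPKM (0.20, interval 0.04 to 0.36). So the highest gene was level, Pou3f2 was lower and Pou3f1 higher in the Rcor2cko library, each by less than 1.5-fold.

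Pou3f4 (Brn4; chrX:108009729-108010910, plus strand, 1 exon), known for the inner ear and for the developing striatum, was at 3.09 FPKM in Rcor2fl/fl (deposited interval 1.91 to 4.28) and 4.70 FPKM in Rcor2cko (3.07 to 6.33). The log2 change was 0.59, from 52 and 106 fragments, with an exact interval of 0.11 to 1.11. It is just past the 1.5-fold size and its deposited intervals overlap. Among the ventral telencephalon markers beside it, Dlx1 was at 4.87 and 13.9 FPKM and Dlx2 at 2.96 and 11.2 FPKM, and their part in the Pou3f4 result was not tested. The gene is X-linked as well, so that the sex of the embryos and the genotype cannot be told apart for it.

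Of class VI, Pou6f1 (Brn5; chr15:100405750-100430415, minus strand, 11 exons), a POU factor of postmitotic neurons, was at 37.8 FPKM in Rcor2fl/fl and 33.6 FPKM in Rcor2cko (-0.17, interval -0.24 to -0.10). Of class II, Pou2f1 (Oct1), which is expressed in nearly all cells, was at 7.38 and 7.86 FPKM (0.09), and Pou2f2 (Oct2) at 2.74 and 2.56 FPKM (-0.09). The intervals of Pou2f1 overlap, 5.71 to 9.05 FPKM and 6.21 to 9.52 FPKM. Both genes have 4 transcripts in the Rcor2fl/fl file, of which the highest held 67.3% of Pou2f1 and 51.7% of Pou2f2. With the highest row in place of the sum, which lowers the Rcor2fl/fl level alone, their changes were 0.65 and 0.81.

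The genes of other tissues were close to 0. Of the 14 members under 1 FPKM in both libraries, 12 had at most 8 fragments in each, with 0.133 FPKM as their highest level. Pou1f1, the pituitary factor, and Pou4f2, of retinal ganglion cells, were at 0 in both. Sox14, Sox15, Pou4f3 and Pou5f1 were at 0 in Rcor2cko and had 1 or 2 fragments in Rcor2fl/fl, and Pou5f2 had 3 and 1. Pou4f1, of sensory neurons, had 1 and 5 fragments, and Pou2f3, of skin and tuft cells, 2 and 2. By quantitative PCR the paper reported lower Pou4f1 in Rcor2cko neocortex at a later stage and in differentiated cultured progenitors. The 1 and 5 fragments here are too few to be set against that. On the log2 scale with the pseudocount, Sox15, Pou4f3, Pou5f1 and Pou5f2 were past 1.5-fold lower, all from 0 to 3 fragments, which the depth cannot tell from no difference. A count of 3 fragments, the limit that a count of 0 allows, equals 0.0882 FPKM in Rcor2fl/fl and 0.0654 FPKM in Rcor2cko for a transcript of 2000 bases.

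**Figure D5:**
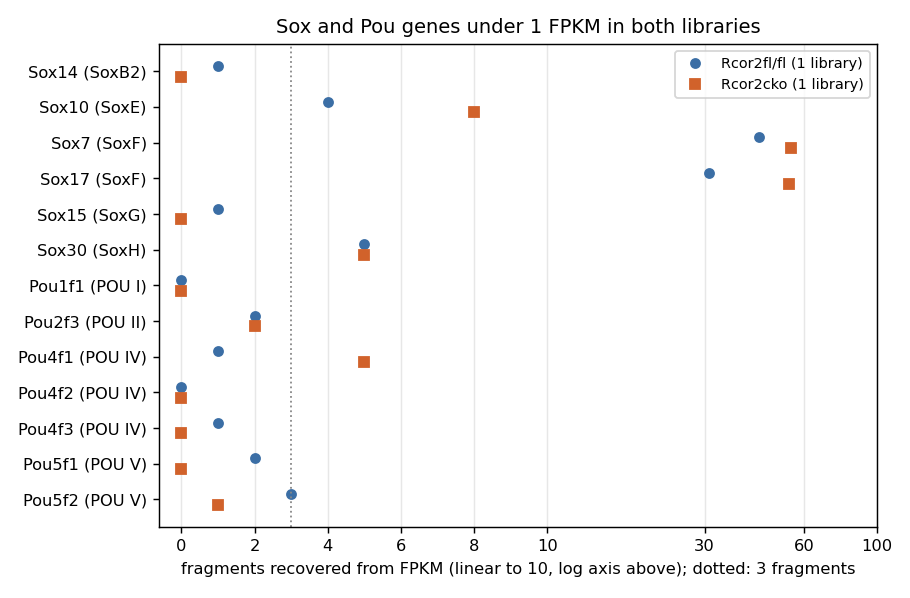
Recovered fragment numbers in the Rcor2fl/fl and Rcor2cko libraries for 13 of the 14 members under 1 FPKM in both. Sox7 and Sox17 have 31 to 55 fragments and the others shown have 0 to 8.

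Genes known as targets or partners of these factors gave 6 lists. Of the 7 listed for SoxB1 and class III POU proteins in neural progenitors, none was past 1.5-fold and 5 were lower in Rcor2cko. Nes, the intermediate filament of progenitors, was at 67.3 FPKM in Rcor2fl/fl and 54.7 FPKM in Rcor2cko (-0.30, interval -0.34 to -0.25), and it is also the gene whose promoter drives Cre. Fabp7, the radial glial fatty acid binding protein, was at 372 and 539 FPKM (0.53), and Vim at 308 and 303 FPKM (-0.02). So Fabp7 and Nes went opposite ways while Sox2 differed little.

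The 5 genes listed for SoxC in new neurons had no member past 1.5-fold and a median change of 0.00. Tubb3, the neuronal tubulin, was at 568 FPKM in Rcor2fl/fl and 521 FPKM in Rcor2cko (-0.12, interval -0.15 to -0.09), Dcx at 172 and 175 FPKM (0.02), and Map2, listed as Mtap2, at 162 and 162 FPKM (-0.01). The exact interval of Tubb3 lay below those of Sox4 and Sox11. Of the 7 genes listed for SoxE in cartilage and glia, 3 were compared and none was past 1.5-fold: Col2a1 was at 13.3 and 11.7 FPKM (-0.18) and Mbp at 3.05 and 3.70 FPKM (0.27). Of the 9 endothelial genes that go with SoxF, 7 were higher in Rcor2cko but none past 1.5-fold, with a median of 0.12. The highest 3, Cldn5, Kdr and Pecam1, were at 12.4 and 12.7, 4.81 and 4.95, and 4.27 and 4.64 FPKM, and Emcn had the largest change of the list, 0.52, at 1.21 and 1.78 FPKM.

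In the lists for class IV and class V, whose own members were near 0, 1 gene each was compared. Both reached 1 FPKM in Rcor2cko only, so they could enter the comparison only as higher there, and the direction is no result. Isl1, which sensory neurons share with ventral telencephalon, had 0 fragments in Rcor2fl/fl and 132 in Rcor2cko, at 2.23 FPKM. The other 5 sensory neuron genes were under 1 FPKM in both. Klf4, which is expressed well beyond pluripotent cells, was at 0.466 FPKM in Rcor2fl/fl and 1.08 FPKM in Rcor2cko, from 25 and 78 fragments (interval 0.54 to 1.92), and 4 of the 6 pluripotency genes were at 0 in each library.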

How the data were processed

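The authors deposited FPKM values for 1 library a genotype. Poly(A) RNA-seq libraries were made with a stranded kit, reads were aligned to mm9 with TopHat and levels were estimated with the Cufflinks suite. The submitters' processing notes list TopHat 1.3.3 and Cufflinks 1.2.0, whereas the methods name another TopHat version. The Rcor2fl/fl file holds 27641 transcript rows and the Rcor2cko file 21896 gene rows, so rows were summed per gene (interval half-widths in quadrature), and the deposited transcript length was used as given. Fragments were recovered from the FPKM steps of genes with 1 row of at least 1000 bases (99.3% of 4015 and 99.4% of 3959 values up to 100 fragments fell within 0.1 of a whole number). Sox15 and Pou1f1, with shorter transcripts of 696 and 876 bases, were given fragment numbers on the same scale. Computation used Python 3.11.15, pandas 2.3.3, numpy 2.4.6, scipy 1.17.1 and matplotlib 3.10.9. The method was tested on simulated data. Members and gene lists were chosen with earlier results of these data known. From each list of targets or partners, the 3 compared genes with the highest mean FPKM and the one with the largest change were named. For the cell type markers summed levels were given, and the genes named there were not picked by this rule. Of 34 members, 32 were found in the GENCODE annotation, and Sox1 and Pou5f2 were not. Coordinates, strands and exon numbers come from that annotation and can differ from the transcripts behind the FPKM. The values of 1 member and 1 listed gene are not reported here. Alternatives were other pseudocounts, scalings, filters, fold sizes and the choice of transcript row.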

Additional observations from a re-analysis of the deposited data

How the results depend on the processing

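No paired analysis was possible because each genotype had a single library. The count of members past 1.5-fold, 1 higher and 1 lower, was 0 and 0 with a pseudocount of 1, with a filter of 5 FPKM in either library, at 2-fold, and when the deposited 95% intervals also had to be apart. With no filter it was 2 and 5, beside 1287 and 672 of all 21896 genes, the additions resting on 0 to 5 fragments. With the highest transcript row in place of the sum, 4 members were higher, beside 1214 of 11767 genes against 446 of 11777 with the sum, and the Pou median was 0.198 and the Sox median 0.012. That choice lowers the Rcor2fl/fl level alone, because only that file lists transcripts. The medians otherwise lay between -0.097 and 0.006 for Sox and between 0.00 and 0.05 for Pou. Over the settings, 5 members changed sign (Sox4, Sox11, Sox5, Sox6 and Pou2f2). Sox5, Sox6 and Pou2f2 did so only with the highest transcript row, which could only move them up. Without replicates, none of the values covers variation between embryos.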
